A study of Homo sapiens with 43 samples.

Results

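The long arm of human chromosome 15 carries an imprinted transcription unit that starts at SNRPN and runs on through SNHG14. Only the paternal copy is normally transcribed. SNRPN encodes SmN, an Sm protein of the spliceosome found mainly in neurons, and its transcript also carries the short reading frame SNURF. SNHG14 is the long noncoding host transcript downstream. Its introns hold the tandem C/D box small nucleolar RNAs (snoRNAs) SNORD116 and SNORD115. Its far end runs antisense to UBE3A, a ubiquitin ligase gene that is silenced on the paternal copy in neurons. Loss of the paternal SNORD116 region is tied to Prader-Willi syndrome, and SNORD115 is known chiefly as a brain RNA.

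The locus was taken as the plus strand of chr15:25068794-25664609 (build hg19, 1-based), an interval of 595.816 kb, and a peak belonged to it if it overlapped the interval by 1 nt or more. Membership rests on position and strand alone, although the locus was picked for description with earlier results of these lists known. Of the 1430241 peaks called in 25 eCLIP libraries, 1 lay in the locus, and it did not reach significance. All counts of the locus hold for the lists as used here. Whether these lists lack further plus-strand rows of the locus could not be seen from them, and any such rows were not analysed here.

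eCLIP (enhanced crosslinking and immunoprecipitation) sequences the RNA fragments that ultraviolet light has bound to an immunoprecipitated protein, here from HEK293T, a human embryonic kidney line. In 6 libraries the protein carried a tag on its own gene, with FLAG on FMR1 or DGCR8 and V5 on LIN28, RBFOX2, or either of isoform 1 and isoform 2 of HNRNPC. In 5 wild-type libraries, antibodies recognised DGCR8, FMR1, LIN28, RBFOX2 or HNRNPC themselves. The remaining 14 libraries name only an antibody, FLAG-only or V5-only, at 7 gel ranges each. The labels give neither the number of clones behind a tagged line nor the cells of the tag-only libraries. No library had a replicate, so no value below has a replicate error.

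The SNORD116 and SNORD115 copies are a repeated part of the locus, and their sequences show how far a stretch of 30 nt is particular to 1 copy of its family. These copies are short beside the interval of 595.816 kb. They were not compared with the rest of the interval or of the genome. The 3 SNORD116 copies and the 1 SNORD115 copy below were picked to show an identical pair, a divergent copy and the second family (DNA letters, 5′ to 3′, GENCODE 29 transcripts on GRCh38 chromosome 15). Capitals mark the first TGATGA, the core of the C box, and the last CTGA, the D box, searched on the RNA's own strand only.
SNORD116-3: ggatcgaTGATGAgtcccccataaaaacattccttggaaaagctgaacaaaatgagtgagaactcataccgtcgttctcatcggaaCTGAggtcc
SNORD116-9: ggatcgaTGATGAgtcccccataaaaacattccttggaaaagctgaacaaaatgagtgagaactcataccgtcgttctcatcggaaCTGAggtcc
SNORD116-27: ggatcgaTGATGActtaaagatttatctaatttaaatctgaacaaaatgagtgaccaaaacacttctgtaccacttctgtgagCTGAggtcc
SNORD115-11: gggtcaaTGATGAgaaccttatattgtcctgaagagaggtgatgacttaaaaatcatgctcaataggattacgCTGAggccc

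SNORD116-3 and SNORD116-9 were identical over their 95 nt, whereas SNORD116-27 shared no stretch of 30 nt with any other SNORD116 copy. The SNORD115-11 sequence occurred in 3 further copies. The annotation holds 30 SNORD116 copies of 83 to 102 nt with 27 distinct sequences, and 48 SNORD115 copies of 71 to 86 nt with 42 distinct sequences. In all, 24 of the 30 SNORD116 copies and 42 of the 48 SNORD115 copies shared at least 1 stretch of 30 nt with another copy of the family. Of all such stretches, 51.6% in SNORD116 and 58.5% in SNORD115 recurred in another copy. TGATGA was found in 28 SNORD116 and 43 SNORD115 copies and CTGA in 30 and 47, against 36.0% and 71.2% of all 955 annotated snoRNA transcripts of any class. These letters were searched at any position, so a count of them is not a count of boxes. TGATGA in SNORD115-25 and the last CTGA in SNORD115-27 and SNORD115-28 lay inside the RNA and not near its end. How reads that map to several places were treated is not stated in the labels or files used here, and its part in the small number of peaks was not tested.

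The single peak lay at chr15:25268376-25268408 on the plus strand, in the V5-only library of 125 to 200 kDa. It was 33 nt wide, 199.582 kb from the start of the interval and 396.201 kb from its end. Its log2 fold over the size-matched input was 2.37, or 5.16-fold, and its −log10 p was 0.842, both the authors' own values. A peak was called significant at a −log10 p of at least 3 with a log2 fold of at least 3, and this peak met neither. None of the other 24 lists held a peak that overlapped it, including the FLAG-only list of the same gel range. The reference annotation used here is on GRCh38 and not hg19, so the peak was not assigned to an exon, an intron or a snoRNA, and its sequence is not shown.

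Within its own list the peak was ordinary. That list held 57078 called peaks, of which 11.5% were significant, and 0 of the 1 peak in the locus was. The log2 fold of 2.37 was the commonest single value of the list, carried by 7292 peaks, and also the list's median. Exactly the same fold and −log10 p were given to 4880 peaks, or 8.55% of the list. A higher fold was found at 37.9% of peaks and a higher −log10 p at 68.0%. The median −log10 p of the list was 1.41 and the median width 32 nt, so that the peak had an average fold and width and a −log10 p below the middle of the list.

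**Figure D1:**
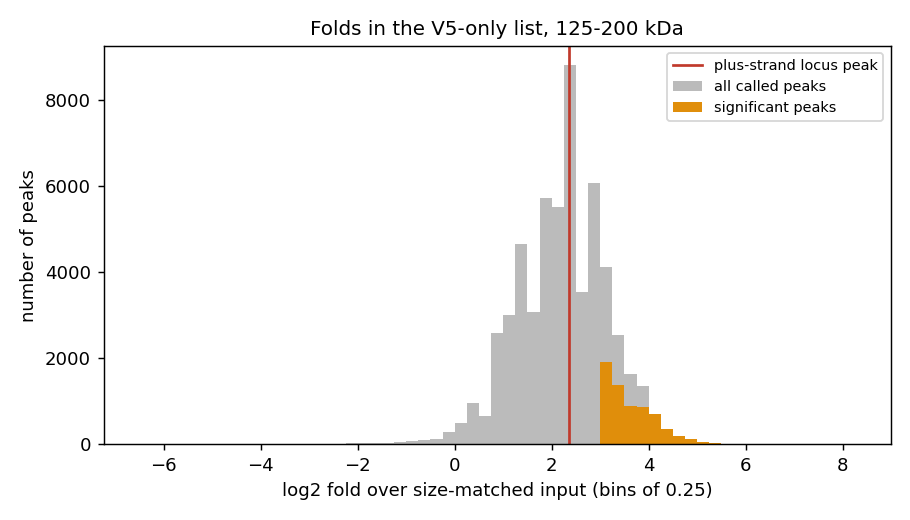
Number of called peaks (grey) and of significant peaks (orange) by log2 fold over size-matched input, in bins of 0.25, for the V5-only library of 125 to 200 kDa. The red line marks the locus peak at a log2 fold of 2.37, in the tallest bin and below the significant peaks, which begin at a log2 fold of 3.

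Across libraries the locus was empty in all others. No peak was called on its plus strand in the 6 tagged libraries, in the 5 wild-type libraries or in the 7 FLAG-only libraries, and 1 of the 7 V5-only libraries held the peak described. RBFOX2, a splicing regulator of introns, and HNRNPC, which packages nuclear pre-mRNA at uridine-rich sites, thus had no called peak along the host transcript with either antibody. The same held for FMR1, a translational regulator, and LIN28, which binds messenger RNAs and microRNA precursors. DGCR8, the RNA-binding partner of DROSHA in microRNA processing, also had none. The lists of these proteins held between 25723 peaks in DGCR8 FLAG and 100860 in FMR1 FLAG. With no significant peak in any list, no region recurred between libraries, and neither a tagged library and its wild-type counterpart nor FLAG-only and V5-only could be compared within the locus. A list holds only peaks that were called, and no read totals were used, so binding at a level too low for a called peak was not detectable here. A transcript that is bound by none of these proteins and one that these cells do not make cannot be told apart in peak lists.

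Along the locus, 11 of 12 successive windows of 50 kb held no plus-strand peak. The peak fell in the fourth window, counted from the SNRPN end. Outside the interval the plus strand was as empty. The nearest plus-strand peak before it ended 1.24 Mb away, at chr15:23827905-23827951, and the nearest after it began 1.96 Mb away, at chr15:27625926-27625951. Both were in the HNRNPC V5 isoform 2 list with a −log10 p of 0 and log2 folds of 0.02 and −0.39. In the 3.80 Mb between them, the locus peak was the only plus-strand peak of the 25 lists.

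Windows of the locus's own length show how common this is. With all 25 lists pooled, 39.5% of 5149 such windows over the autosomes and sex chromosomes held no plus-strand peak and another 3.17% held 1, so that 42.6% held at most as many as the locus. The median window held 12 plus-strand peaks. These windows include stretches without genes and assembly gaps, and are given as a description of the lists.

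**Figure D2:**
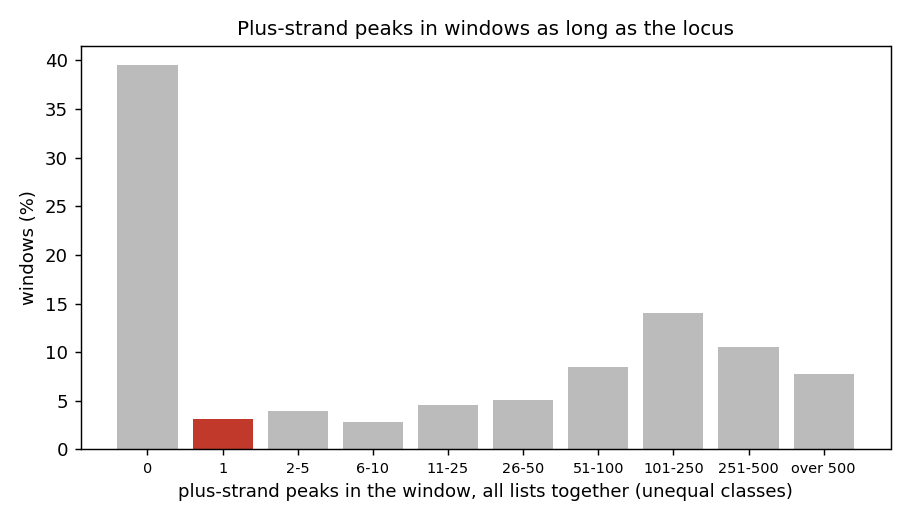
Percentage of windows as long as the locus, on the plus strand of all chromosomes, by number of called peaks in the 25 lists together, in classes of unequal width. The red bar is the class of the locus, 1 peak, with 3.17% of windows, beside 39.5% with none.

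The minus strand of the same interval was not empty. It held 116 peaks in 24 of the 25 lists, all but RBFOX2 V5, and 29 of them, or 25.0%, were significant, against 5.96% of all called peaks. These 29 came from 7 libraries. FMR1 FLAG alone had 18, and the other lists had 11 among their 95 minus-strand peaks. Those 11 were all in FLAG-only or V5-only libraries, and no other tagged or wild-type library had one. The plus strand thus had 1 of the 117 peaks of the interval, or 0.855% (95% Wilson interval 0.151% to 4.68%, counting error over peaks only, which are not independent), against 46.5% of the 49132 peaks on chromosome 15 and 50.9% of all called peaks. Nearly every library thus had called peaks on the strand opposite the host transcript, but only in 3 of the 12 windows of 50 kb. How reads were placed in the other windows is not shown by the lists.

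Those minus-strand peaks stood far from the plus-strand peak. They formed 2 groups separated by over 100 kb. The group nearer to it, 113.864 kb away, held 9 peaks in 9 libraries at chr15:25154447-25154511, none significant, with log2 folds between −0.19 and 3.16. The larger group held 107 peaks at chr15:25583270-25660991, 314.861 kb away, and all 29 significant ones. In the annotation of GRCh38, UBE3A is the minus-strand gene at that end of SNHG14. Without an hg19 annotation the peaks were not assigned to it. FMR1 FLAG had 18 significant peaks among its 21 minus-strand peaks, and FMR1 wild type had 0 among its 10, where the whole lists had 17.2% and 5.23% of their peaks significant. FLAG-only libraries had 3 significant among 7 minus-strand peaks at 125 to 200 kDa and 2 among 6 at 100 to 175 kDa. They had 2 among 4 at 150 to 225 kDa and 1 among 3 at 175 to 250 kDa. At 25 to 100, 50 to 125 and 75 to 150 kDa they had 0. The FMR1 FLAG peak of highest log2 fold, 5.30 at chr15:25616668-25616747, overlapped a significant FLAG-only peak of 125 to 200 kDa with 4.96. That FMR1 FLAG peak also overlapped significant peaks of FLAG-only at 100 to 175 kDa (4.12) and V5-only at 100 to 175 kDa (3.37). A significant V5-only peak of 125 to 200 kDa (3.37) and a non-significant FMR1 wild-type peak (2.23) overlapped it too. The part of tag-only background in the FMR1 FLAG peaks was not tested. The V5-only library of 125 to 200 kDa, which held the plus-strand peak, had 4 minus-strand peaks with a median log2 fold of 3.07, and 2 of them were significant.

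**Figure D3:**
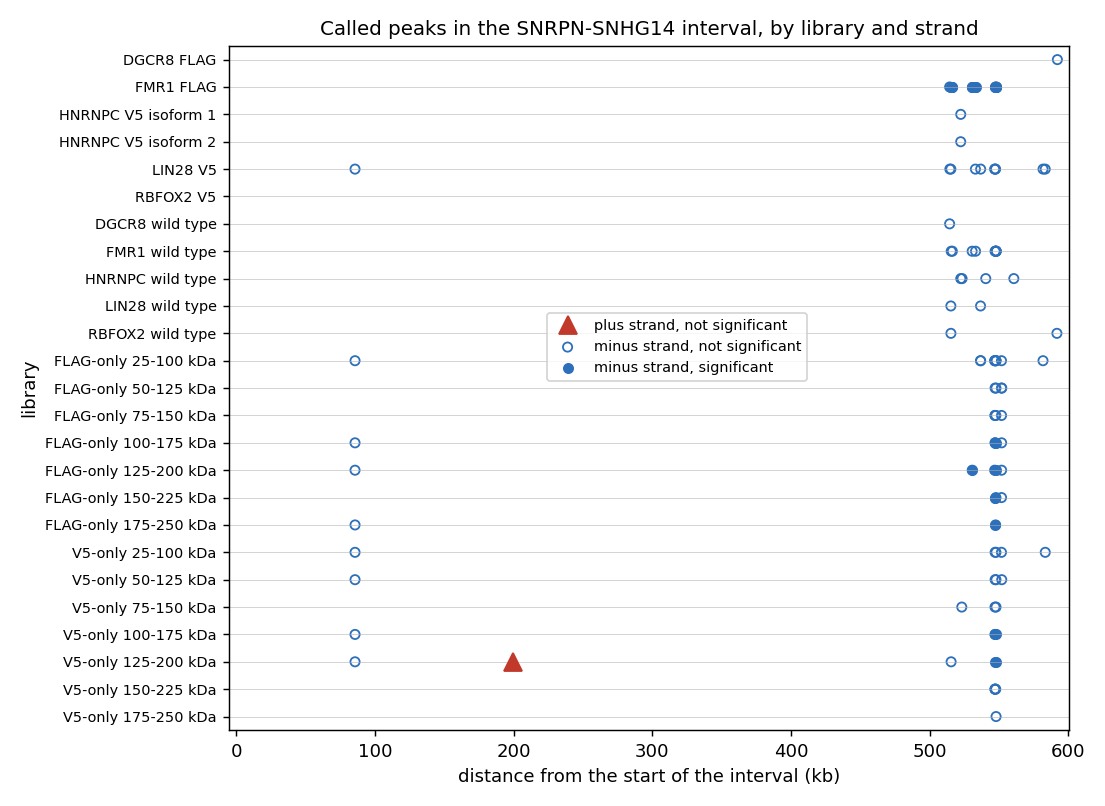
Called peaks along the interval by library, with the distance from its start in kb on the x axis. The red triangle is the only plus-strand peak, at 199.582 kb in the V5-only library of 125 to 200 kDa, while circles are minus-strand peaks (filled where significant), most of them in the last 100 kb.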

How the data were processed

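The deposited files are 1 peak list per immunoprecipitation library, in 6 unnamed columns: coordinates, strand and 2 enrichment values. The authors' −log10 p and the authors' log2 fold of each peak over its size-matched input were used as deposited. Per the submitters' processing notes, positions are in hg19 and cutadapt, STAR, GATK, Picard and SAMtools were used. No label or file used here names the peak caller. The 18 input samples were not analysed here on their own, and the depth of the libraries in reads is unknown.

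Peaks overlapping the locus were counted with Python 3.11.15, after the overlap rule had been tested on planted intervals. The Wilson interval came from SciPy 1.17.1. No test between libraries was run, since each state had 1 library. Sets of values over the 7 gel ranges were only screened for an outlying value with Dixon's rule. The windows of the locus's length began at the first base of each chromosome, and peaks were placed by their middle. Regions were to be named by recurrence between libraries and by highest significant fold. No peak qualified, and the single peak is described instead. snoRNA copies were compared by shared stretches of 30 nt. The locus, the snoRNA families and the settings were chosen with earlier results of these data known. Alternatives were other thresholds, a whole peak inside the locus, a minimum width of 20 nt, joining within 100 nt and leaving out the range of 125 to 200 kDa.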

Additional observations from a re-analysis of the deposited data

Results flagged for a closer look

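Plus-strand peaks numbered 1 in the V5-only library of 125 to 200 kDa and 0 in each other V5-only gel range. This was the only one of 8 sets of 7 gel-range values that was flagged for an outlying value. The rule's nominal chance of about 1 set in 20, or 0.4 of 8, does not apply here, because a single peak among zeros is always flagged. The flag therefore carries no weight beyond the 1 peak itself. The same library also had 11.5% of its called peaks significant, against 0.555% to 3.10% in the other V5-only libraries. The FLAG-only library of the same gel range also had the highest share of its group, 22.1% against 1.21% to 11.5%, but no plus-strand peak in the locus. The part of the gel range in the count was not tested.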

How the results depend on the processing

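The number of significant peaks in the locus was 0 at the stricter threshold (−log10 p of at least 5), at the looser one (log2 fold of at least 2), with whole peaks inside the locus and with peaks of at least 20 nt. The number of regions significant in 2 or more libraries and the difference between FLAG-only and V5-only in significant peaks were 0 under each alternative run for them. None of these zeros could have come out otherwise. The only called peak had a −log10 p of 0.842, and every setting asked for at least 3. The number of called peaks was 1 with whole peaks inside the locus and with peaks of at least 20 nt, and 0 without the gel range of 125 to 200 kDa. These settings for the called peak were chosen after seeing the data, and its width of 33 nt, its position and its library fixed their outcome. With no significant peak, the shares by segment and the overlap of tagged with wild-type libraries gave no value under any setting. No paired analysis was possible because the result comes from no test. The FLAG-only and V5-only libraries pair by gel range, but both had 0 significant peaks in the locus in each of the 7 ranges, so every paired difference was 0. The description rests on 1 peak, and the lists do not show how many reads lay behind it.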
